A study of Homo sapiens with 8 samples.

Results

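Genes of the nuclear pore complex were followed in the RNA-seq of 2 myeloma cell lines after THZ1, a covalent inhibitor of the transcription kinase CDK7. The set was chosen by symbol and held 32 genes, 31 that encode nucleoporins or their close partners and ZC3HC1, of the 63677 genes in the count tables. The choice was made with earlier results of these data known. Cells labelled JJN3 or H929 were treated with THZ1 at 50 nM or with the vehicle DMSO for 24 h, and each line and treatment had 2 libraries, 8 in all. Both are established cell lines grown from human multiple myeloma. No genetic change was made in any group, all cells were grown in the same medium, and DMSO was the control of both lines. The labels do not state whether the 2 libraries of a group came from separate cultures, so p-values measure the spread between these libraries only. All 32 genes passed the filter on low counts in both lines.

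The nuclear pore complex is a large ring-shaped channel through the nuclear envelope. Outer and inner rings form its scaffold, membrane proteins anchor it, nucleoporins rich in phenylalanine-glycine repeats fill the channel, and filaments and a basket reach into the cytoplasm and the nucleus. Importins and exportins carry cargo through the channel with the help of the small GTPase Ran, and mRNA leaves the nucleus by the same route. ZC3HC1 encodes NIPA, known as the F-box protein of an SCF ubiquitin ligase for cyclin B1 and as a protein of the nuclear basket. Plasma cell tumours secrete large amounts of immunoglobulin and are known to be sensitive to block of the exportin XPO1.

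The total count per library was 17476443 to 19194371, and a floor of 3 counts was 0.156 to 0.172 CPM (counts scaled to the library total), for counting error only. All 10 plasma cell markers were above 3 counts in the JJN3 libraries and in those labelled H929 THZ1, and 8 and 9 of them with the H929 DMSO label. Their summed level in JJN3 was 4277 and 4357 CPM with DMSO and 3904 and 3854 with THZ1. It was 3365 and 3631 CPM under the H929 DMSO label and 12201 and 12227 CPM under the H929 THZ1 label. IGJ was the largest part in JJN3. There SDC1, TNFRSF17, IRF4, XBP1, MZB1, SLAMF7 and FCRL5 had lower counts with THZ1, PRDM1 and IGJ had higher counts, and CD38 overlapped. Under the H929 THZ1 label CD38 and MZB1 had lower counts than under H929 DMSO, and the rest of the list had higher ones. Markers of myeloid and erythroid cells were near the floor, with summed levels of at most 1.07 and 1.52 CPM. The libraries labelled H929 stood apart by treatment label in features that mark a clone. Lambda genes made up 99.99% and 97.96% of light chain V gene counts under the H929 DMSO label, 0.212% and 0.211% under the H929 THZ1 label, and 0.257% to 0.391% in JJN3. FGFR3, a translocation target known to be overexpressed in H929, had counts of 45 and 285 under the first label and of 14117 and 13411 under the second. MAF had 18006 and 16310 counts against 2729 and 2942, and EPCAM, an epithelial marker, had 2391 and 2249 against 1 and 6, with 1195 to 1373 in JJN3. KRT18, from the same list, had 1593 and 1488 against 19 and 17, with 0 to 8 in JJN3. The summed level of the 4 epithelial or stromal markers was 69.5 to 82.1 CPM in JJN3, and 215 and 211 against 1.63 and 1.37 between the H929 labels. The summed level of the 4 B cell markers, mostly CIITA, was 66.2 and 68 CPM with DMSO and 20.5 and 21.2 with THZ1 in JJN3, and 158 and 159 against 1.57 and 1.59 between the H929 labels. That of the 4 T or NK cell markers was at most 4.41 CPM except under the H929 THZ1 label (35.6 and 36.2), where CD3E led it. The part of these markers in the results below was not tested. Replicate 2 of H929 DMSO also held 597 counts on kappa V genes, 2% of the level under the THZ1 label, where replicate 1 held 3. Light chain, clone and treatment cannot be told apart between these labels, so results below are given for the libraries labelled H929 and not as a response of H929. The study states that its cell lines were authenticated by short tandem repeats.

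In JJN3, most nuclear pore genes did not pass the limits after THZ1. With the study's limits (adjusted p under 0.05, absolute log2 fold change over 0.5), 8 of the 32 genes were lower (25%), 1 was higher (3.12%) and 23 were not called. Over all 13984 genes tested, 21.3% were lower and 20.6% were higher, so the share of lower genes was near that of all genes and the share of higher genes was below it. The median log2 fold change of the 32 genes was -0.28 and that of all genes tested was 0.00. Without the limit on the fold change, 20 of the 32 genes were lower (62.5%, against 30.1% of all genes) and 3 were higher (9.38%, against 28.9%). No test of the set against other genes was run. Lower and higher are relative to the other genes of a library, so these values do not give amounts of RNA per cell. Libraries were also scaled by total counts in place of TMM, edgeR's trimmed mean of log ratios. The median of all genes then moved to -0.10 and that of the 32 genes to -0.38. Of the 32 genes 13 were then lower and 0 higher, beside 3641 lower and 2353 higher of all 13984 genes.

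ZC3HC1 and NUP37 had the lowest log2 fold changes of the 32 genes in JJN3. Since the members were chosen with earlier results of these data known, this order only describes them. From here on, CPM values given for single genes are TMM-scaled. ZC3HC1 had 28.2 and 27.5 TMM-scaled CPM with DMSO and 12.6 and 12.1 with THZ1, from 558, 547, 209 and 220 counts. Both libraries with THZ1 lay below both with DMSO, and the replicates were close to each other. The log2 fold change was -1.17, a 2.25-fold lower level, with a standard error (SE) of 0.112 and an adjusted p of 8.48e-06 (quasi-likelihood test of edgeR, adjusted after Benjamini and Hochberg over all genes tested). It stayed between -1.27 and -1.14 under every alternative of tool, scaling, filter, fit, block and left-out library. The gene lies on the minus strand of chr7:129658127-129691291 (GRCh37, the build called hg19 by the authors) and shares 2.13% of its exon bases with an antisense transcript.

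The study designed RT-qPCR primers for selected genes associated with superenhancers (large clusters of enhancers), with a pair for ZC3HC1 among them. Its selection took genes with a superenhancer in a minimum number of primary myeloma cases and not in controls, and sensitive to THZ1. That sensitivity was judged by adjusted p and log2 fold change, and the genome-wide THZ1 profiling the study describes is this RNA-seq. A place among the selected genes is thus not independent of the values given here. The study reports RT-qPCR of its selected genes after THZ1 in JJN3 and in the line KMS11, and after the inhibitor JQ1 in JJN3. The ZC3HC1 pair is shown here because it places an assay on a gene with 1 of the lowest values. Both primers matched the coding sequence of the ZC3HC1 reference transcript in GRCh37, the forward primer in exon 7 at chr7:129664142-129664163 and the reverse primer in exon 8 at chr7:129663494-129663515. The product spans 131 bases of the transcript, and 6 of 12 annotated ZC3HC1 transcripts hold both sites.
ZC3HC1 forward primer: atctcctcggaggatgatgacc
ZC3HC1 reverse primer: gacggtcaacaggactggaaga

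Among the 8 genes of the outer ring, the Y-shaped scaffold complex that also acts at kinetochores, all log2 fold changes in JJN3 were negative and the median was -0.45. Of these 8 genes, 3 were called lower (37.5%, against 21.3% of all genes tested). NUP37, a peripheral subunit of the Y complex, had 53.7 and 54.1 CPM with DMSO and 22.0 and 26.0 with THZ1 (log2 fold change -1.17, SE 0.102, edgeR adjusted p = 4.92e-06). The THZ1 libraries were well below both DMSO libraries, in spite of a wider gap between them than between the controls. NUP85, a subunit of the short arm of the Y, had 49.1 and 51.7 CPM with DMSO and 31.6 and 32.1 with THZ1 (-0.66, SE 0.0883, edgeR adjusted p = 8.16e-05), again with no overlap. NUP107, part of the stem, went from 122 and 130 to 82.8 and 88.6 CPM (-0.56). SEH1L and NUP43 had values of -0.47 and -0.43 and NUP133, in the stem, -0.28, each past the adjusted p and short of the fold limit. NUP160 (-0.16) and SEC13 (-0.05), the latter shared with vesicle coats of the secretory pathway, did not pass the test.

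The inner ring holds the scaffold to the membrane and to the central channel. All 5 of its genes had negative values in JJN3, with a median of -0.41, and 2 were called lower (40%, against 21.3% of all genes tested). NUP35, a membrane-binding subunit, had 50.1 and 51.8 CPM with DMSO and 32.3 and 32.7 with THZ1 (-0.65, SE 0.0869, edgeR adjusted p = 8.53e-05), and its groups were clearly apart. NUP188, a large scaffold subunit, was just past the limit, with 198 and 203 CPM against 149 and 133 (-0.51, edgeR adjusted p = 0.000388). Without replicate 2 of THZ1 it was -0.42 and with DESeq2's size factors or the filter of 1 CPM in 2 libraries -0.49, short of the limit in all 3. NUP205, its larger relative, had -0.41 and NUP93, which links the inner ring to the channel, -0.30, both past the adjusted p, whereas NUP155 had -0.11 and an edgeR adjusted p of 0.274.

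In the central channel, NUP62, the FG-repeat protein at its core, was the only gene of the 4 called lower in JJN3 (25%, against 21.3% of all genes). It had 200 and 198 CPM with DMSO and 124 and 136 with THZ1 (-0.62, SE 0.0817, edgeR adjusted p = 7.65e-05). Its partners NUP54 (-0.27) and NUPL1 (-0.30) and the linker NUP98 (-0.21), an FG-repeat protein that also occurs in leukaemia fusions, had smaller falls past the adjusted p alone. For NUP62, 20.1% of exon bases are shared with other genes, among them the antisense gene ATF5, which had a log2 fold change of 0.34 in JJN3. Whether reads were counted by strand is not given in the sources used here, so reads of such neighbours cannot be told apart.

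On the cytoplasmic side the genes moved in both directions in JJN3. AAAS encodes ALADIN, the protein mutated in triple A syndrome. It had 38.8 and 39.8 CPM with DMSO and 24.2 and 21.7 with THZ1 (-0.78, SE 0.100, edgeR adjusted p = 6.66e-05), with no overlap. RANBP2, the giant protein of the cytoplasmic filaments and a SUMO ligase that holds RANGAP1 at the pore, was the only member called higher. It had 116 and 117 CPM with DMSO and 176 and 177 with THZ1, a 1.51-fold higher level (0.60, SE 0.0762, edgeR adjusted p = 5.98e-05). Scaling by total counts brought it to 0.49, below the limit, and its direction was the same under all alternatives. RANBP2 has near-identical copies, the RGPD genes, whose summed counts were 2.06% to 2.54% of those of RANBP2 in JJN3, so shared reads that were left out make its count uncertain. NUP88 (-0.49) and NUP214 (-0.43), partners at the cytoplasmic face, and GLE1 (-0.25), the activator of the export helicase, passed the adjusted p alone. NUPL2 (0.00) and the mRNA export factor RAE1 (0.11) did not pass.

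The other 3 basket genes had positive values in JJN3. TPR, the main protein of the basket filaments, had 501 and 489 CPM with DMSO and 601 and 566 with THZ1 (0.24, edgeR adjusted p = 0.0396), and NUP153 (0.14) and NUP50 (0.09) did not pass the test. No gene of the membrane ring was called. NUP210, a glycoprotein of the pore membrane, had 0.40 (edgeR adjusted p = 0.00364) and reached 0.51 without replicate 2 of THZ1, when 2 members in place of 1 were called higher. NDC1, which anchors the pore in the membrane, had -0.27. POM121 and POM121C, near-identical copies whose shared reads were left out, had 0.14 and 0.21 and did not pass.

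**Figure D1:**
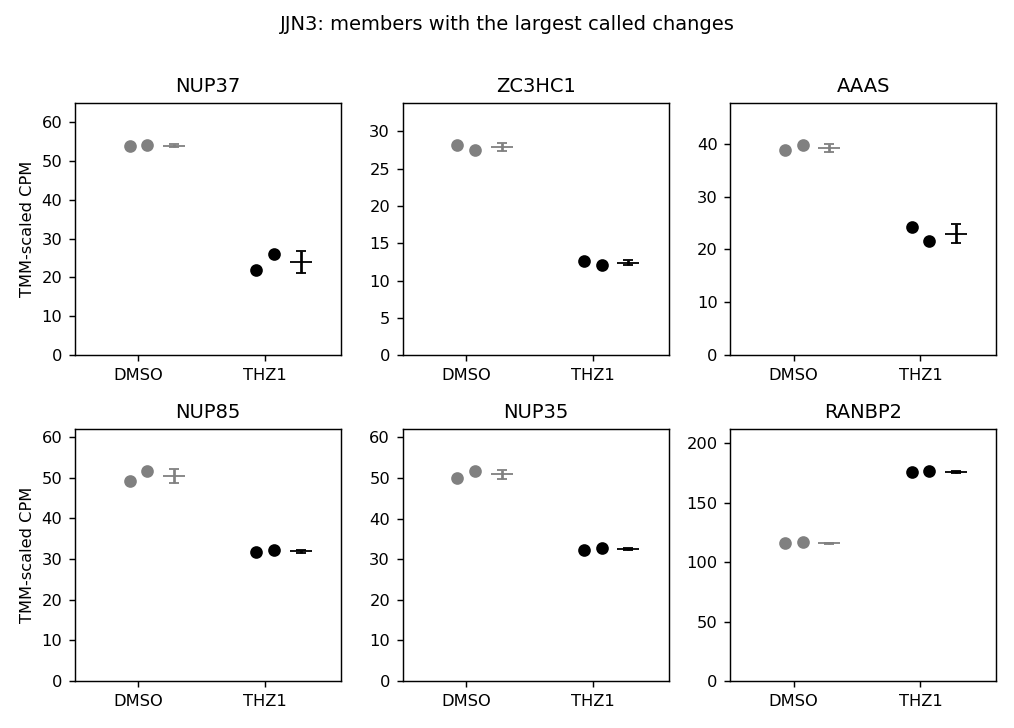
TMM-scaled CPM in JJN3 for the 5 genes with the largest called falls and the only gene called higher. Points are libraries, and the dash with its bar is the mean ± SD of 2 libraries. RANBP2 is higher in both THZ1 libraries (176 and 177 CPM against 116 and 117) and the other 5 genes are lower in both. Apart from ZC3HC1, genes were named only if their groups did not overlap.

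**Figure D2:**
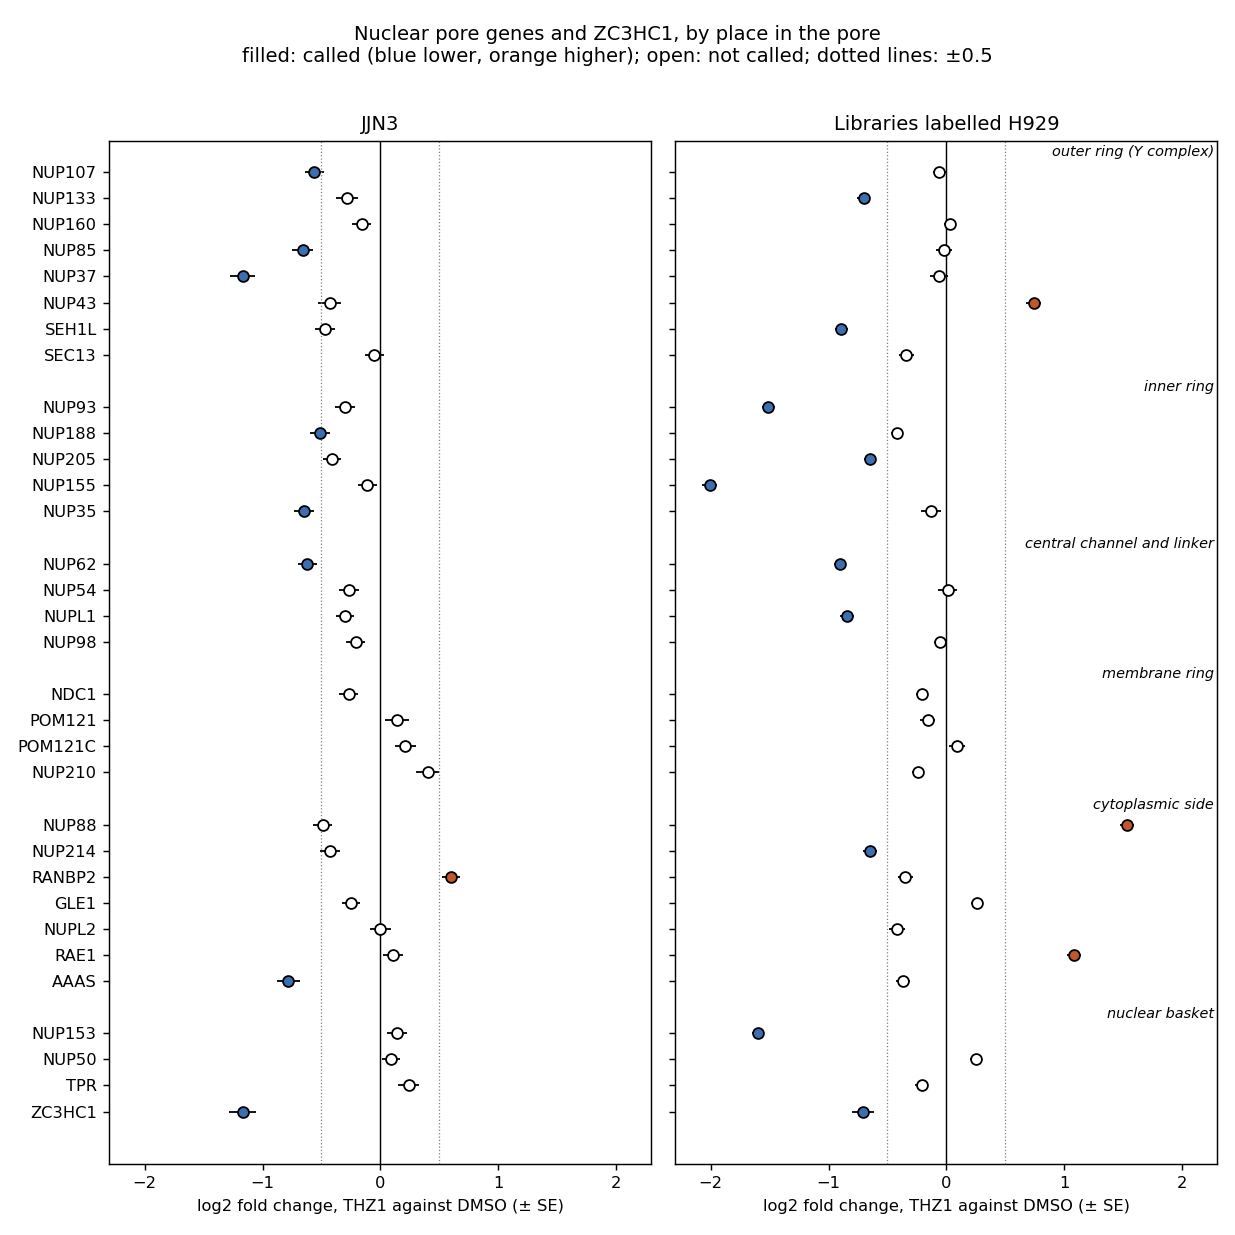
Log2 fold change of THZ1 against DMSO with its SE for the 32 genes, grouped by their place in the pore, for JJN3 (left) and the H929 labels (right). Filled points were called and dotted lines mark 0.5 on either side of 0. In JJN3 the outer ring, inner ring and central channel all lie below 0, from -1.17 to -0.05.

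Between the H929 labels, where clone markers differ too, 10 of the 32 genes had lower counts with THZ1 (31.2%) and 3 had higher counts (9.38%). Over all 14863 genes tested the shares were 32.6% and 33.1%. The median of the 32 genes was -0.23 and that of all genes was 0.01. The counts were 10 and 3 again when any 1 of the 4 libraries was left out, replicate 2 of DMSO included, and the median was -0.23 without that library.

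The 3 lowest log2 fold changes between these labels were in scaffold and basket genes. NUP155, an inner ring subunit, had 177 and 170 CPM with DMSO and 41.2 and 44.6 with THZ1 (-2.01, SE 0.0619, edgeR adjusted p = 7.7e-14). NUP153, which binds importins at the basket, had 400 and 386 CPM against 131 and 129 (-1.60, SE 0.0525, edgeR adjusted p = 1.74e-13). NUP93 had 276 and 281 CPM against 102 and 92.8 (-1.51, SE 0.0575, edgeR adjusted p = 9.27e-13). None of these groups overlapped, as naming required, and the gaps between replicates were small beside the differences. NUP62 followed with 451 CPM in each DMSO-labelled library against 247 and 236 (-0.90, SE 0.0519), and SEH1L with 162 and 161 against 88.0 and 85.8 (-0.89, SE 0.0540). ZC3HC1 had 32.1 and 35.1 CPM against 21.6 and 19.5 (-0.71, SE 0.0917, edgeR adjusted p = 2.79e-06). ZC3HC1 was thus lower under both pairs of labels, with no overlap in either. The remaining called genes, NUPL1, NUP133, NUP214 and NUP205, had values of -0.84 to -0.65.

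NUP88 was higher under the THZ1 label, with 56.1 and 53.8 CPM against 160 and 157 (1.53, SE 0.0577, edgeR adjusted p = 8.71e-13). Of its exon bases 35.5% are shared with the antisense genes RPAIN and RABEP1, which had log2 fold changes of 1.58 and 0.66 between the same libraries, and their part in the NUP88 value was not tested. RAE1 had 66.4 and 72.4 CPM against 148 and 145 (1.08, SE 0.0597, edgeR adjusted p = 8.83e-11), and no other gene overlaps its exons. NUP43, an outer ring subunit, had 55.0 and 53.6 CPM against 89.9 and 91.8 (0.74, SE 0.0614, edgeR adjusted p = 1.4e-08). All 3 were separate between the labels in every library, as naming required. For NUP62, the neighbours ATF5 and IL4I1 had values of 1.94 and -6.09 between these labels.

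**Figure D3:**
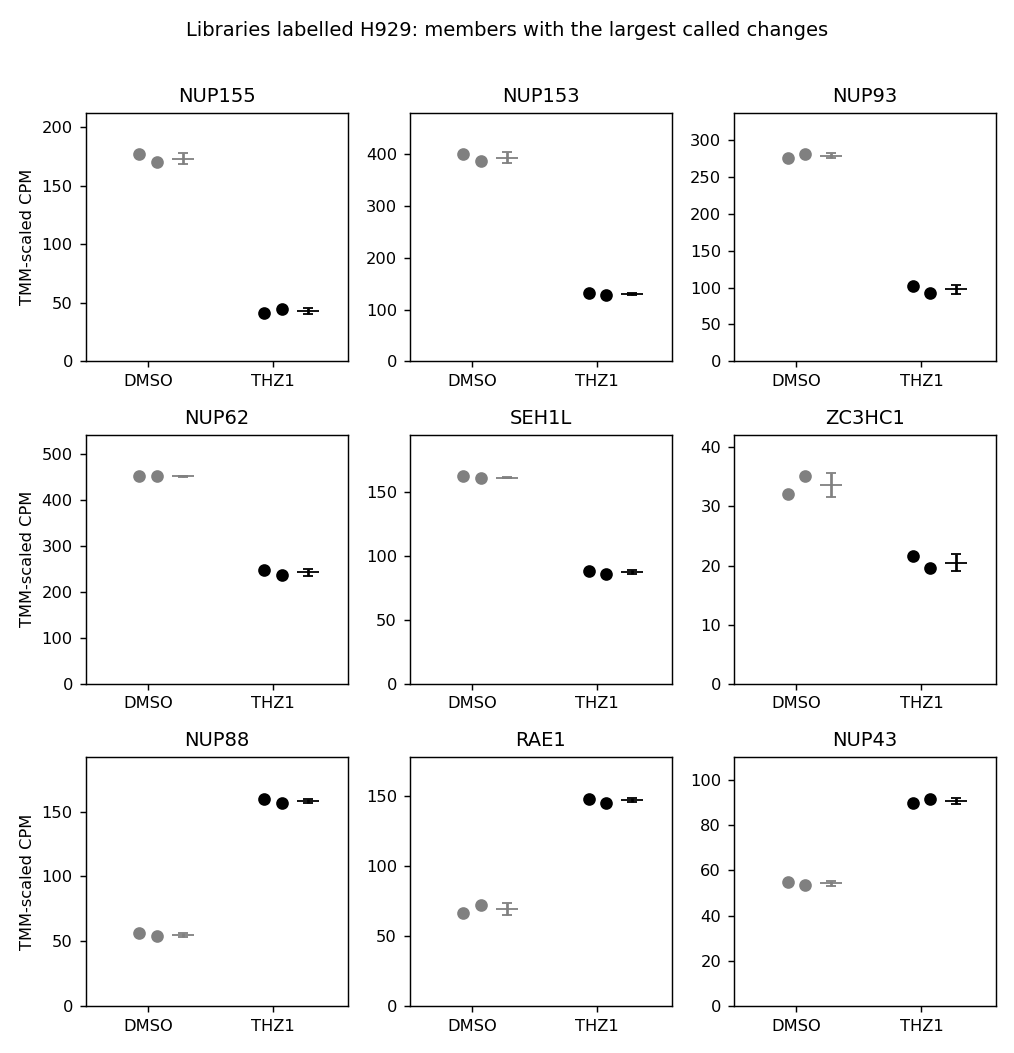
TMM-scaled CPM in the libraries labelled H929 for the 5 genes with the largest called falls, ZC3HC1 and the 3 genes called higher. Points are libraries, and the dash with its bar is the mean ± SD of 2 libraries. The labels do not overlap in any of the 9 panels, which naming required of all but ZC3HC1. NUP155 has the widest gap in fold terms (177 and 170 CPM against 41.2 and 44.6).

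Set side by side, NUP62 and ZC3HC1 were called lower under both pairs of labels and no gene was called higher under both. Of all genes tested, 21.3% were lower in JJN3 and 32.6% between the H929 labels. The share of all genes called under both pairs was not computed, so these overlaps only describe the 32 genes. In JJN3 alone NUP107, NUP85, NUP37, NUP188, NUP35 and AAAS passed as lower, and under the H929 labels alone 8 others did. Passing in 1 comparison only does not show a difference, so the difference itself was tested with an interaction term in a fit of the 8 libraries. By that test 6 of the 32 genes had a lower log2 fold change under the H929 labels than in JJN3 (18.8%, against 25.5% of the 16122 genes tested) and 8 a higher one (25%, against 28.1%). The median difference was -0.03 for the 32 genes and 0.04 for all genes.

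The lowest differences were those of NUP155 (-1.90), NUP153 (-1.73), NUP93 (-1.21), RANBP2 (-0.93) and NUP210 (-0.63). The highest were those of NUP88 (2.02), NUP43 (1.18), NUP37 (1.12), RAE1 (0.97) and NUP85 (0.65). The edgeR adjusted p of these 10 genes ranged from 6.4e-11 to 0.00012. NUP88, NUP43, RANBP2, NUP210 and NUP153 had values of opposite sign under the 2 pairs of labels, those of NUP153 being 0.14 in JJN3, which did not pass the test, and -1.60. NUP37, which was lower in JJN3, had 38.9 and 37.5 CPM under H929 DMSO and 35.8 and 37.6 under H929 THZ1, groups that overlapped. For ZC3HC1 the difference was 0.47 (SE 0.142, edgeR adjusted p = 0.00906), short of the limit. It passed the limit with total counts (0.61), with no filter (0.55), and without replicate 2 of JJN3 DMSO (0.51), replicate 1 of JJN3 THZ1 (0.52), replicate 2 of H929 DMSO (0.57) or replicate 2 of H929 THZ1 (0.57). Since the H929 labels also differ in clone markers, this test compares the labelled libraries.

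**Figure D4:**
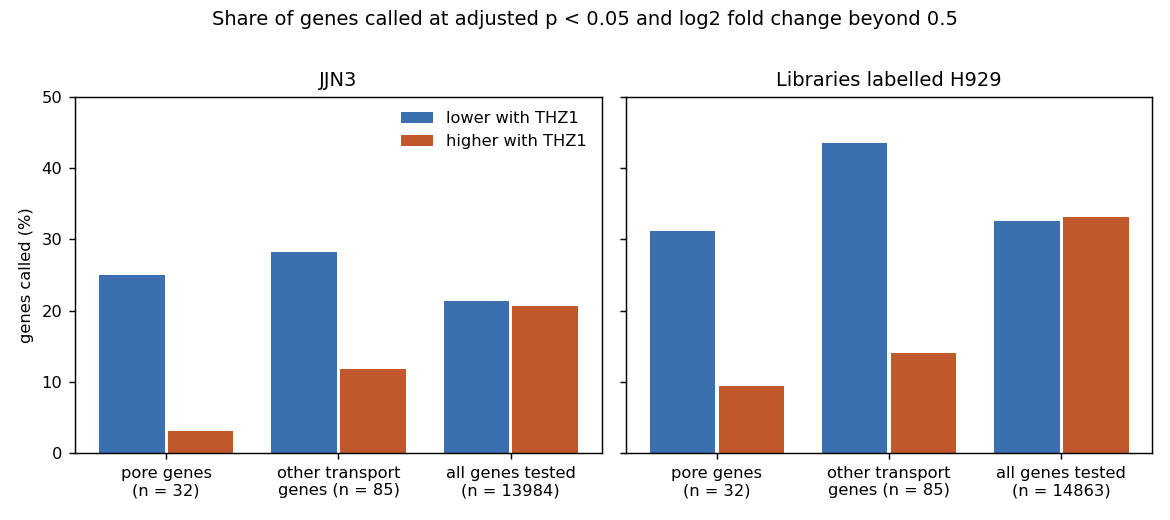
Share of genes called lower or higher with THZ1 among the 32 pore genes, 85 other genes of nuclear transport and envelope, and all genes tested. In JJN3, 25% of the pore genes were lower and 3.12% higher, against 21.3% and 20.6% of all genes.

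The genes that work with the pore were described from 7 lists with 85 genes in all, and all 85 were tested in both lines. In JJN3, 24 were lower (28.2%) and 10 higher (11.8%), with a median of -0.17, beside the 21.3%, 20.6% and 0.00 of all genes. The Ran cycle had 3 of 8 genes lower and 1 higher. RANGAP1, the Ran GTPase activator held at the pore by RANBP2, had 260 and 251 CPM with DMSO and 117 and 125 with THZ1 (-1.08, SE 0.0815), and RCC1, the Ran exchange factor on chromatin, 208 and 205 against 95.7 and 101 (-1.07, SE 0.0788). Both were separate between the groups, as their naming required. Of the 17 importins 3 were lower and 1 higher, of the 7 exportins 3 and 0, and of the 24 mRNA export genes 9 and 3. The exportin XPO1, named for its known role in myeloma, had 0.28 (SE 0.0899, edgeR adjusted p = 0.0193), short of the limit. DDX39B, a helicase of the export complex TREX, had 47.1 and 50.6 CPM with DMSO and 135 and 95.9 with THZ1 (1.24, SE 0.136), with a wide gap between the THZ1 libraries.

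The nuclear lamina and envelope list had 5 of 16 genes higher in JJN3 (31.2%, against 20.6% of all genes) and 3 lower (18.8%, against 21.3%). SYNE2, a nesprin that ties the envelope to the cytoskeleton, had 24.7 and 24.9 CPM with DMSO and 93.0 and 75.6 with THZ1 (1.76, SE 0.109). LMNA, the A-type lamin, had 257 and 266 against 541 and 675 (1.22, SE 0.111). TOR1A, an ATPase of the envelope lumen, fell from 49.5 and 54.1 to 22.8 and 26.4 CPM (-1.07, SE 0.104). Among the 5 genes of the SCF ligase and cyclin B1, CCNB1, the cyclin that NIPA is known to target, was called lower (-1.07). The 8 other pore partners had 2 genes lower, SENP1 and TMEM209. For the named genes of these lists in JJN3 the edgeR adjusted p ranged from 9.42e-07 to 2.07e-05, CCNB1, SENP1 and TMEM209 left aside, which were named after their values were seen, and without XPO1, whose value stands above.

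Between the libraries labelled H929, 37 of the 85 genes were lower (43.5%) and 12 higher (14.1%), with a median of -0.34, beside the 32.6%, 33.1% and 0.01 of all genes. RCC1 was lower there as well, with 384 and 386 CPM against 112 and 104 (-1.83, SE 0.0556). The lowest value was that of DDX19B, the RNA helicase activated by GLE1 (24.0 and 25.6 against 6.46 and 6.35 CPM, -1.95). SYNE2, which was higher in JJN3, had 31.8 and 30.3 CPM under the DMSO label against 8.44 and 8.24 (-1.90), and its difference between the lines was -3.65. SUN2, a partner of nesprins, had 47.4 and 53.7 CPM against 140 and 142 (1.48), the importin KPNA5 5.29 and 5.96 against 15.4 and 15.0 (1.43), and the torsin partner TOR1AIP1 69.5 and 68.9 against 156 and 163 (1.21). Naming required that the labels not overlap for these 6 genes, whose edgeR adjusted p ranged from 6.56e-14 to 6.31e-08. XPO1, which had a positive value in JJN3, had -0.49 here (SE 0.0537, edgeR adjusted p = 4.64e-07), short of the limit. Its difference between the lines was -0.76 (edgeR adjusted p = 5.87e-06), past the limit. By list, to be read against those shares, the importins had 10 lower and 2 higher, the exportins 3 and 1, the Ran cycle 3 and 1, mRNA export 12 and 3, the lamina and envelope 3 and 5, the pore partners 3 and 0, and the SCF list 3 and 0.

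Levels were compared between genes per length, for the 31 genes with a gene model in the GRCh37 annotation used here. They were counts per kb of annotated exon, scaled to the library total like the marker CPM and not by TMM. In JJN3 with DMSO they ran from 42.2 ± 0.176 (SD, n = 2) for NDC1 to 3.31 ± 0.188 for NUP214. TPR (41.5), NUP153 (35.3) and NUP62 (34.2) were next to NDC1, and NDC1 and TPR were close to each other. ZC3HC1 was 26th of 31, at 9.59 ± 0.095, between NUP85 (10.1 ± 0.44) and AAAS (8.61 ± 0.231), and 30th with THZ1, at 3.96 ± 0.0133. NUP155 held rank 12 under the label H929 DMSO (18.6 ± 0.37) and rank 29 under H929 THZ1 (4.76 ± 0.263), while RAE1 went from rank 20 (12.1 ± 0.819) to rank 6 (26.4 ± 0.32). The exon length is the union over all annotated transcripts, so it is too long for genes with many rare exons, and the order depends on it.

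**Figure D5:**
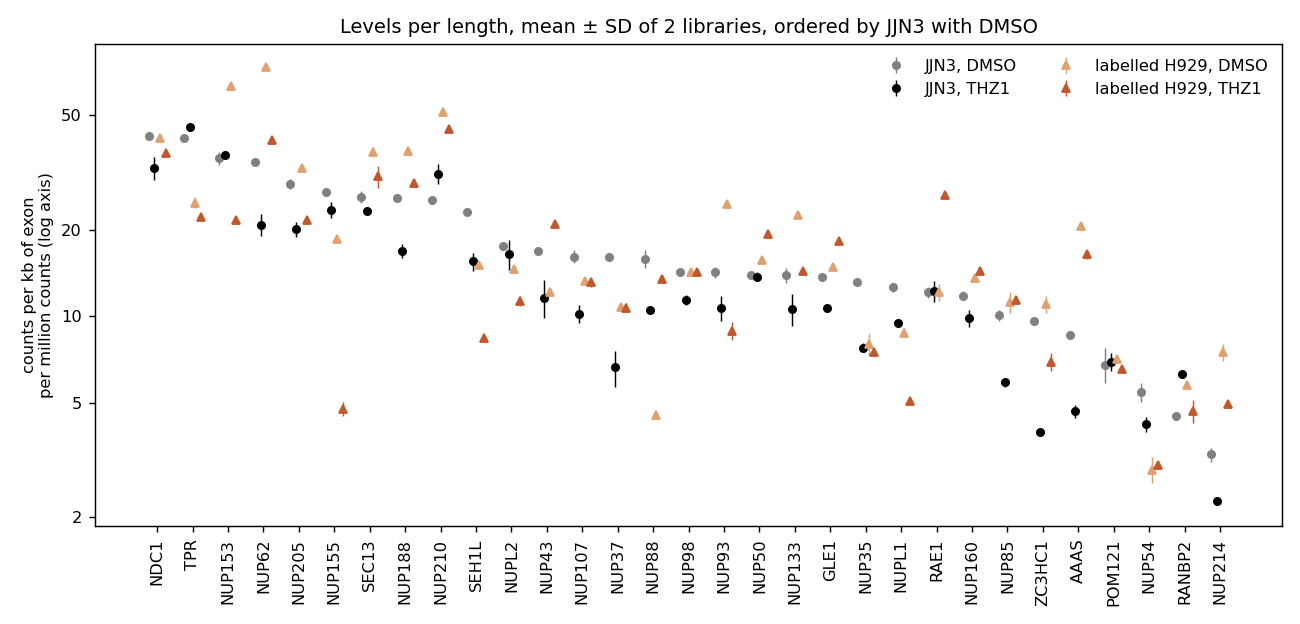
Levels per length of 31 genes in the 4 groups, on a log axis, as the mean ± SD of 2 libraries, ordered by the level in JJN3 with DMSO. ZC3HC1 lies at 9.59 in JJN3 with DMSO and at 3.96 with THZ1, and among its own 4 group levels NUP155 is lowest in the libraries labelled H929 THZ1 (4.76).

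The length of the gene was set beside the change as a description across genes, which are not independent. Spearman's rho between the span from the first to the last exon and the log2 fold change was 0.32 in JJN3 and -0.27 under the H929 labels over 31 genes, and 0.10 and 0.06 over all genes with a model. NUP37, AAAS and ZC3HC1 span 47018, 17409 and 33165 bases, and RANBP2 66329 bases.

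RefSeq promoters (GRCh38.p14) were matched for 30 of the 32 genes, all but NUP43 and GLE1, and the 250 bases before the start were searched on both strands for 6 short motifs. The ETS core CCGGAAG was in 13 of the 30 (43.3%), against 8.82% of all 27305 promoters and 16.6% of the 9265 promoters of genes tested in JJN3 that matched by symbol. Of the 8 genes lower in JJN3, 3 held it. The NRF1 core GCATGCGC was in 3 of the 30 (10%, against 2.81% of all promoters and 5.03% of those of tested genes), and the YY1 core AAGATGGC in 1 (3.33%, against 1.37% and 1.89%). The CCAAT box CCAAT was in 10 (33.3%, against 33% and 35.6%), the GC box GGGCGG in 12 (40%, against 42.3% and 66.9%) and the TATA box TATAAA in 0 (against 11.1% and 5.15%). A match is only a description of these letters, and no binding was measured here. The last 150 bases before the start are printed for the 5 genes with the lowest values in JJN3 and for RANBP2, with matches in capitals. ZC3HC1 lies at chr7:130051386-130051535, minus strand, NUP37 at chr12:102120115-102120264, minus strand, AAAS at chr12:53321611-53321760, minus strand, NUP85 at chr17:75205529-75205678, plus strand, NUP35 at chr2:183124293-183124442, plus strand, and RANBP2 at chr2:108719332-108719481, plus strand. NUP37 and NUP35 hold the ETS core and the CCAAT box, read as ATTGG on the printed strand of NUP35, whereas ZC3HC1, AAAS, NUP85 and RANBP2 hold none of the 6 motifs.
ZC3HC1 promoter: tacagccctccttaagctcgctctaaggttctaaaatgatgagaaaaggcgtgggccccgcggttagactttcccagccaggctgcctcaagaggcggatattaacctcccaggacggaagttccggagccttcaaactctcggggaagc
NUP37 promoter: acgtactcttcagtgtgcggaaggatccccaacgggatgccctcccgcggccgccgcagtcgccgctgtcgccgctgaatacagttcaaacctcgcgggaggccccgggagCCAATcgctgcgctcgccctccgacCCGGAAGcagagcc
AAAS promoter: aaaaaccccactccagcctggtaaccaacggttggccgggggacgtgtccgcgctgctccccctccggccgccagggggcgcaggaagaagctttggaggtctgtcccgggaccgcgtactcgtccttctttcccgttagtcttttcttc
NUP85 promoter: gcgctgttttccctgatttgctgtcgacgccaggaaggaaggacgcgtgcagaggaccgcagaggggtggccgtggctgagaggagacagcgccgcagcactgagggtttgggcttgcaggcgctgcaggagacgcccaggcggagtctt
NUP35 promoter: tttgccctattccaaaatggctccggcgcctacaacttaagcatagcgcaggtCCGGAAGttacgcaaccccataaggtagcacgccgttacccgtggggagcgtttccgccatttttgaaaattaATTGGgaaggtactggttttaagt
RANBP2 promoter: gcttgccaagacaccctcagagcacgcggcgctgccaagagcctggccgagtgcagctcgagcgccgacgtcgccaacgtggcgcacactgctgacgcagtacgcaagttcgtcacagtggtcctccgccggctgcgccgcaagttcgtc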

How the data were processed

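Total RNA was sequenced from cells labelled JJN3 or H929 after THZ1 or DMSO, with 2 libraries per group. Line means the line named on the label. The authors aligned reads to hg19 with STAR 2.5.2a, kept reads that map once, and deposited raw featureCounts counts of Ensembl genes. The strand setting is not given in the sources used here. The authors' DESeq2 tables (version 1.12.4 per the labels) hold fold changes and p-values of their own comparisons and were not used, except that the deposited gene symbols (unit other) were read from the JJN3 table.

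Counts were tested with edgeR 4.0.16 in R 4.3.3 (TMM, filterByExpr, quasi-likelihood test, Benjamini-Hochberg adjustment over all genes tested), within each line, and as an interaction on the 8 libraries together. A call needed an adjusted p under 0.05 and an absolute log2 fold change over 0.5. The standard error was taken from the log2 fold change and the F statistic. The total count per library was 17476443 to 19194371. The fits were tested on simulated data at these depths: edgeR called 76% of 100 genes changed by 1 on the log2 scale in JJN3 and 93% of 100 changed by 2, of 13984 genes. For the interaction it called 64% and 85%, of 16122 genes. Far fewer genes were changed there than in the data and none by an amount near 0.5. The simulation thus does not give the power for changes of the size seen in most members. Alternatives were DESeq2 1.42.0, its size factors or total counts in edgeR, no filter or 1 CPM in 2 libraries, 1 fit of all 8 libraries, the replicate number as a block, other fold limits, and leaving out each library in turn. Gene models came from the GENCODE annotation lifted to GRCh37, and POM121C was not matched by identifier.

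The named genes were ZC3HC1, the 5 largest falls and 5 largest rises in each line among called members whose groups do not overlap, and the 5 largest called differences between the lines in each direction. In the other lists they were the 3 largest falls and rises among called genes whose groups do not overlap, with a mean log2 CPM of at least 3. The lack of overlap in genes named this way follows from the choice. Library values of NUP62, NUP107, NUP188 and TPR in JJN3, and of NUP37 under the H929 labels, are given outside these rules. The members and the lists were chosen with earlier results of these data known.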

Additional observations from a re-analysis of the deposited data

Results flagged for a closer look

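Of the 32 genes, 14 differed in their log2 fold change between the H929 labels and JJN3 by the interaction test of edgeR (adjusted p under 0.05 and a difference beyond 0.5), beside 25.5% of all genes lower and 28.1% higher. The difference, the value under the H929 labels minus that in JJN3, was negative for NUP155 (-1.90), NUP153 (-1.73), NUP93 (-1.21), RANBP2 (-0.93), NUP210 (-0.63) and NUPL1 (-0.53). It was positive for NUP88 (2.02), NUP43 (1.18), NUP37 (1.12), RAE1 (0.97), NUP85 (0.65), NUP35 (0.53), NUP107 (0.51) and GLE1 (0.51). Several lay at the limit and missed it under an alternative: NUPL1 with total counts (-0.39), with no filter (-0.45), and without replicate 2 of JJN3 DMSO (-0.46), replicate 1 of H929 DMSO (-0.47) or replicate 1 of H929 THZ1 (-0.48). So did NUP210 with total counts (-0.49), NUP107 without replicate 2 of JJN3 DMSO (0.48), replicate 1 of JJN3 THZ1 (0.48) or replicate 1 of H929 THZ1 (0.49), and NUP35 without replicate 1 of H929 DMSO (0.46). The H929 DMSO and THZ1 labels also differ in light chain genes, FGFR3 and MAF, so line, clone and treatment cannot be told apart in these differences.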

How the results depend on the processing

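With 2 libraries a group, few degrees of freedom are left and the test borrows its spread across genes. Falls near 0.5 on the log2 scale in JJN3 were at the limit. Depth was not varied, and the SE in JJN3 was larger for ZC3HC1 (0.112, with 209 to 558 counts) than for NUP50 (0.0754). In JJN3 the count of members lower (8) and higher (1) became 20 and 3 with the adjusted p alone (4212 and 4035 of all 13984 genes), 2 and 0 with a log2 fold change beyond 1 (1006 and 1397), and 13 and 0 with total counts, where the median was -0.38. Leaving out each library gave 8 to 10 lower, 1 to 2 higher and medians of -0.32 to -0.23. SEH1L passed the limit without replicate 2 of DMSO (-0.51) or of THZ1 (-0.52) and with no filter (-0.51), NUP210 without replicate 2 of THZ1 (0.51), NUP43 without replicate 2 of THZ1 (-0.56), NUP214 without replicate 2 of DMSO (-0.51) and NUP88 without replicate 1 of DMSO (-0.56), with DESeq2 (-0.51), with no filter (-0.53) and, just past the limit, with all 8 libraries in 1 fit. With total counts, NUP43, SEH1L, NUP205, NUP88 and NUP214 passed the limit, and the scaling moved the calls of all genes in JJN3 from 2972 lower and 2877 higher to 3641 and 2353.

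Under the H929 labels the counts of 10 lower and 3 higher became 19 and 5 with the adjusted p alone (6081 and 6095 of all 14863 genes), and 3 and 2 with a log2 fold change beyond 1 (3146 and 3501). The median was -0.20 with DESeq2 and with its size factors, and -0.18 with total counts. For the difference between the lines, 13 genes were lower and 11 higher with the adjusted p alone (4783 and 5209 of all 16122 genes), and 3 were lower and 3 higher beyond 1 (2920 and 3179). Its median of -0.03 became 0.11 with total counts, which moved the median of all genes to 0.18, and 0.06 with no filter. Over libraries left out it ranged from -0.06 to 0.05. The cause of these changes was not tested beyond the construction of each setting.

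Genes with values near 0 changed sign. In JJN3 these were NUPL2 (0.02 with DESeq2's size factors and with 1 CPM), NUP50 (-0.02 with total counts), and, over libraries left out, NUPL2 (up to 0.09), POM121 (-0.02 to 0.28) and SEC13 (-0.11 to 0.01). Under the H929 labels they were NUP85 (0.00 with DESeq2 and its size factors, 0.03 with total counts), NUP98 (0.00 with total counts) and, over libraries left out, NUP85 (-0.11 to 0.08) and NUP54 (-0.10 to 0.13). POM121C was 0.03 with total counts in the difference between the lines. No gene changed sign in a comparison that called it.

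Replicate numbers did not pair the libraries: the deviations of libraries with the same number from their group means correlated at 0.0034 in JJN3 and -0.012 under the H929 labels. With the replicate number as a block, 8 members were lower and 1 higher in JJN3, 10 and 3 under the H929 labels, and 6 and 8 in the difference, and the medians were -0.28, -0.23 and -0.03.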
